A study of Sus scrofa with 20 samples.

Results

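The comparison concerns 6 of the 20 arrays in the series, the 3 labelled S35D and the 3 labelled 21W28D, and they were chosen by their deposited labels alone. By these labels the S35D arrays come from piglets that were still suckling at 35 days of age, and the 21W28D arrays from piglets of 28 days that had been weaned at 21 days and given a commercial weaning diet for the 7 days since. All animals were crossbreds of Landrace, Large white and Duroc pigs, and each array carried labelled RNA of a single animal's ileal mucosa, so that each group is 3 animals. The other 14 arrays (S14D, S21D and S28D from suckling piglets and 21W35D from weaned piglets) served here to estimate the spread and to place levels. The 2 groups differ both in age and in weaning, which cannot be told apart in this comparison.

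The ileal mucosa is a single layer of epithelial cells over connective tissue, and in young pigs it lies over long Peyer's patches filled with B cells. Epithelial cells sense viral and bacterial nucleic acids and answer with interferons, which bind receptors on neighbouring cells and, through the JAK kinases and the STAT and IRF factors, switch on a broad set of interferon-stimulated genes whose products block virus replication. The same cells secrete proteins that bind microbes, take up nutrients and bile acids, and detoxify compounds of the diet. At weaning the milk, with its antibodies and growth factors, is replaced by solid feed.

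Values were log2 expression values of probe sets on the Affymetrix GeneChip Porcine Genome Array, on which 1 unit is a 2-fold difference. The lowest value, 2.08, is a floor, and the highest was 16.41. Within 1 unit of that floor, where differences are compressed, lay 41.6% of the values. Array medians were 5.15 to 5.22 in the S35D arrays and 5.19 to 5.27 in the 21W28D arrays. The label of the tissue was borne out by its defining markers: FABP6, the ileal bile acid-binding protein, was at 15.98 ± 0.10 (SD, n = 3) in the S35D arrays and at 15.94 ± 0.09 (n = 3) in the 21W28D arrays, and VIL1 (villin) and EPCAM were above 13.4 in all 6. The reference genes ACTB and GAPDH differed by -0.01 (standard error 0.13) and -0.14 (0.11).

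The labels of both groups are uncertain with regard to weaning. Over all probe sets, the 3 S35D arrays correlated at 0.989, 0.994 and 0.993 with the mean of the weaned 21W35D group, and at 0.973, 0.991 and 0.987 with the mean of the suckling S28D group. Replicates 2 and 3 of 21W28D correlated at 0.994 and 0.997 with S28D and at 0.985 and 0.988 with 21W35D, whereas replicate 1 correlated at 0.989 and 0.991. All 3 arrays labelled as suckling at 35 days were thus nearer to the weaned group of that age. Of the 3 arrays labelled as weaned, 2 were nearer to the suckling group of their own age. S28D and 21W35D differ in age as well as in weaning, and each nearer group named here was also the one of the same age. Age and weaning cannot be told apart by these correlations, which do not settle the labels. If the 2 labels were exchanged, each difference below would keep its size, error and p-value and turn its sign. The groups are therefore named by their labels only, and higher or lower always means in the S35D arrays relative to the 21W28D arrays.

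In the S35D arrays, 290 probe sets were higher and 95 were lower by at least 2-fold at an adjusted p under 0.05 (limma fitted to all 20 arrays, Benjamini-Hochberg adjustment), which is 1.21% and 0.396% of the 23999 tested. On the adjusted p alone, 494 (2.06%) were higher and 428 (1.78%) were lower, and the median difference over all probe sets was 0. Of the 290 higher probe sets, 173 carried 1 gene symbol and stood for 152 genes, and 87 differed by at least 4-fold. The lower ones were smaller and less often annotated: 24 of the 95 carried 1 symbol, for 22 genes, and 8 differed by at least 4-fold. The values of the 2 groups did not overlap in 288 of the 290 and in all 95, against 8.73% and 11.8% of all probe sets, and a probe set passes the test more readily where they do not. S35D replicate 1 lay farthest from the 21W28D mean among the S35D arrays in 239 of the 290 and in 75 of the 95. Without it, 59 probe sets were higher and 11 were lower. The counts were 427 and 188 without S35D replicate 2, 129 and 45 without S35D replicate 3, 113 and 31 without 21W28D replicate 2, and 92 and 50 without 21W28D replicate 3. The main fit took no account of the replicate numbers, although the planned rule called for them as a block. With that block the counts were 174 and 52. With only the 6 arrays in the fit, limma called 0 probe sets at 2-fold in either direction (584 higher and 359 lower at an unadjusted p under 0.05 and 2-fold). The smallest adjusted p of that limma fit was 0.02155 over all probe sets and 0.08317 among 2-fold differences. All calls at 2-fold thus rest on the spread shared among the 20 arrays. The probe sets called at 2-fold in all 6 of the fits that left out 1 array were 51 higher and 7 lower ones.

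**Figure D1:**
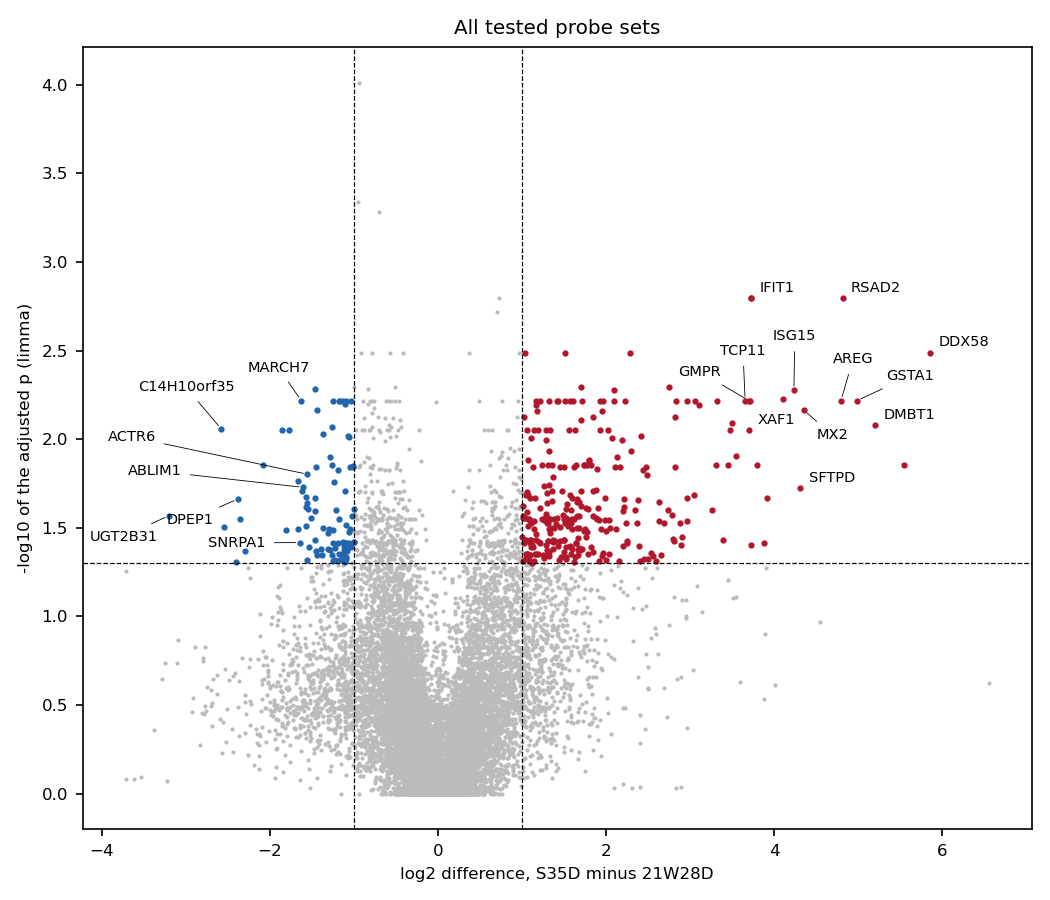
Each point is 1 of the 23999 tested probe sets, with its log2 difference (S35D minus 21W28D) on the x axis and -log10 of its adjusted p from limma on the y axis. Dashed lines mark an adjusted p of 0.05 and 2-fold. The 290 higher probe sets (red) reach 5.86 log2 units, while the 95 lower ones (blue) reach -3.20.

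Genes induced by interferon were the largest group among the named rises. Of the 55 genes in 3 lists (sensors of viral nucleic acids, the ISG15 conjugation system and antiviral effectors), 26 were measured, and 18 of them passed the test, all higher, whereas 3.65% of the 6765 genes with 1 symbol were higher and 1.48% lower by the same test. Their differences ran from 1.31 to 4.82 log2 units. The median over the 26 was 1.85, against 0 over all genes. The 3 genes ISG15, IFIT2 and USP18 had been singled out by the study on these arrays, together with IFI6, which is not given here. They belong to a pathway that the study reported as positively affected in weaned against suckling piglets of the same age. The study did not test the comparison made here, so that it selected no direction for it. Because the 3 genes were picked on the same arrays, their place among the 18 is no independent evidence. The lists and their members were also chosen with earlier results of these data known. The count of 18 is therefore a description and no independent evidence either.

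Among the sensors, DDX58, which encodes the RNA helicase RIG-I, was at 12.29, 11.11 and 11.68 in the S35D arrays and at 6.50, 8.84 and 7.42 in the 21W28D arrays. All 3 S35D arrays were above all 3 21W28D arrays, with a difference of 4.11 (standard error 0.60, adjusted p = 0.00589, limma). A second, dimmer DDX58 probe set gave the largest difference of all named genes, 5.86, with S35D values of 10.37, 8.19 and 9.03. ZBP1, a sensor of Z-form nucleic acids, was at 11.71, 10.55 and 10.94 against 7.16, 8.44 and 7.20, a difference of 3.47 (0.59, adjusted p = 0.00887). EIF2AK2, the kinase PKR that halts translation on double-stranded RNA, was higher by 1.31 (0.25, adjusted p = 0.0139). DDX60, a helicase that was in none of the lists, was higher by 3.45 (0.65, adjusted p = 0.0140). The other 2 sensors measured, TLR8 and MAVS, were at the floor in both groups.

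ISG15 is a ubiquitin-like protein that is conjugated to other proteins in interferon-treated cells, and USP18 is the protease that removes it and also damps the interferon receptor. ISG15 stood at 14.89, 13.82 and 14.23 in the S35D arrays and at 9.22, 11.37 and 9.65 in the 21W28D arrays. Its difference was 4.24 (0.61, adjusted p = 0.00530), or 18.8-fold. USP18 stood at 12.95, 12.17 and 12.92 against 9.64, 10.39 and 9.78, a difference of 2.75 (0.39, adjusted p = 0.00510). Both genes were highest in S35D replicate 1, and within the 21W28D group both were highest in replicate 2.

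Of the 19 antiviral effectors measured, 13 were higher and 0 were lower (3 others were higher at an unadjusted p under 0.05). RSAD2 (viperin, which makes a chain-terminating nucleotide) was at 15.15, 14.24 and 14.49 in the S35D arrays and at 9.59, 10.49 and 9.35 in the 21W28D arrays. Every S35D array was far above every 21W28D array, with a difference of 4.82 (0.54, adjusted p = 0.00161), 28.2-fold. MX2, a dynamin-like GTPase, was at 11.14, 9.52 and 9.72 against 5.07, 7.14 and 5.11, a difference of 4.36 (0.71, adjusted p = 0.00686). Its neighbour in the genome, MX1, was higher by 2.82. XAF1, a pro-apoptotic partner of XIAP, was higher by 3.70 (0.64, adjusted p = 0.00887). OAS1, which makes the second messenger that activates RNase L, was at 14.60, 13.56 and 13.74 against 10.75, 11.27 and 9.93, a difference of 3.32 (0.49, adjusted p = 0.00606).

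The IFIT proteins bind foreign RNA ends, and IFIT1, IFIT2 and IFIT3 lie side by side in the pig gene table. IFIT1 was at 14.26, 13.98 and 14.00 in the S35D arrays and at 10.36, 11.95 and 10.74 in the 21W28D arrays, a difference of 3.06 (0.48, adjusted p = 0.00606). IFIT3 differed by 3.10 and IFIT2 by 3.05 at its brightest probe set. A dimmer IFIT2 probe set was at 2.16, 2.17 and 2.26 in the 21W28D arrays, within 1 unit of the floor, and at 9.63, 6.81 and 6.77 in the S35D arrays. PLSCR1, IFI44L, PARP12, PARP9 and DTX3L were higher by 1.31 to 1.93. PARP9 and DTX3L form a complex that modifies histones and viral proteins, and they too are neighbours in the genome.

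The 6 effectors that did not pass had small differences or large spread. IFI35 differed by 0.54 (adjusted p = 0.12), PML by 0.47, SP110 by 0.38, GBP2 by 0.64 and GBP1 by 0.04. SAMHD1, a nuclease that depletes nucleotides, was at 10.41, 10.83 and 11.04 in the S35D arrays and at 11.19, 12.19 and 12.26 in the 21W28D arrays, a difference of -1.11 (adjusted p = 0.29). GBP1 and GBP2 are known as strong targets of interferon gamma.

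Above these genes in the pathway, IRF7, the factor that amplifies the type I interferon response, lay between 11.61 and 12.22 in the S35D arrays and was at 9.07, 9.36 and 8.51 in the 21W28D arrays. The groups were apart, with a difference of 2.96 (0.45, adjusted p = 0.00606). TYK2, a kinase of the interferon receptor, was lower by 0.51 (0.12, adjusted p = 0.0370), at 9.98, 9.94 and 10.02 against 10.29, 10.61 and 10.56. TYK2 did not pass with the replicate number as a block (adjusted p = 0.0618; 0.0252 to 0.255 over its 16 alternatives), and it passed in 1 of the 6 fits that left out 1 array. The other 12 of the 14 ligand and signalling genes measured did not pass; IRF9 differed by 0.82 and STAT2 by 0.17. Of the interferon genes themselves, IFNB1 was at the floor of 2.08 in all 6 arrays, and IFNA1 was at 3.11 to 3.16. No other interferon gene is given here, and values this low do not show whether interferons were expressed.

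All 18 interferon-induced genes that passed were highest in S35D replicate 1, and 16 of them were highest within the 21W28D group in replicate 2. The 2 groups overlapped in none of the 18, but a gene passes the test more readily where they do not. Of all 26 measured, 20 did not overlap in this direction and 1 in the other. Among all genes, 14.2% did not overlap in this direction. In S35D replicate 1 the score of the 3 lists (the mean of their genes after centring each on all 20 arrays) was 1.94, against 1.23 and 1.57 in replicates 2 and 3 and -1.08, -0.24 and -0.85 in the 21W28D arrays. Without S35D replicate 1, 10 of the 18 passed, and without 21W28D replicate 3, 12 did. The other 4 fits that left out 1 array kept 15 to 18. DDX58, ZBP1, ISG15, USP18, IFIT1, IFIT3, MX2, OAS1, RSAD2 and PLSCR1 passed in each of the 6. With the replicate number as a block 16 of the 18 passed. PARP9 was at an adjusted p of 0.0517 in that limma fit (over its 16 alternatives, 0.0138 to 0.184), and DTX3L was at an adjusted p of 0.0668 (over its 16 alternatives, 0.0155 to 0.244). With only the 6 arrays in the fit the differences were the same, and limma called 0 of the 18 after adjustment, while all 18 had an unadjusted p under 0.05.

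In the other groups the interferon score was -0.82 to -0.32 in the 4 S21D arrays, -0.80 to 1.06 in the 4 S28D arrays and 1.04 to 1.42 in the 3 21W35D arrays. The S28D arrays thus spanned most of the range between both groups compared. For all 18 genes the 21W35D mean lay between the means of 21W28D and S35D and was nearer to that of S35D. The S28D mean was nearer to S35D for 2 of them and the S21D mean for 0. The 18 genes were selected for their difference between S35D and 21W28D, and the same shares over all genes are not given here. By label 21W35D also has the age of S35D, and S28D that of 21W28D.

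**Figure D2:**
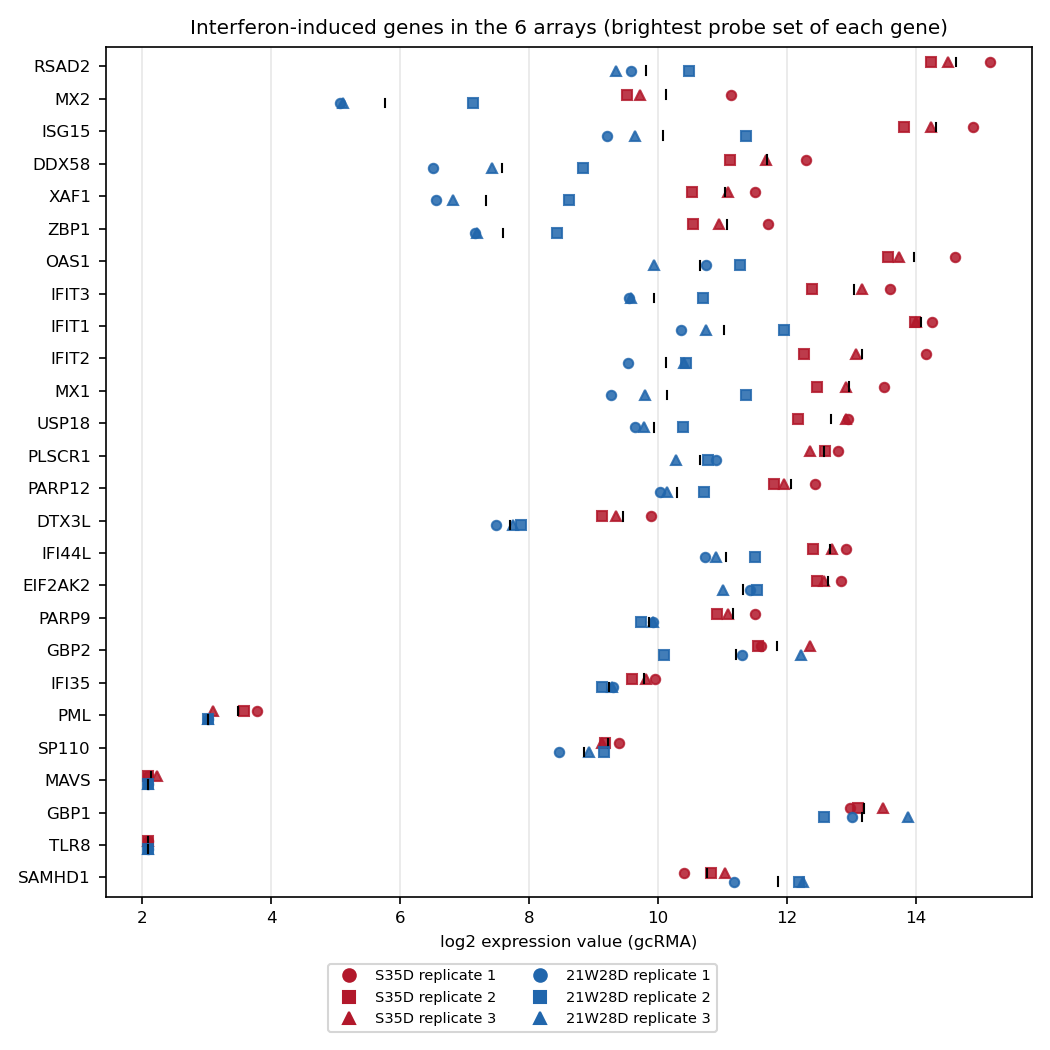
Log2 expression values (x axis) of the 26 measured interferon-induced genes (y axis, ordered by difference) in the 3 S35D arrays (red) and the 3 21W28D arrays (blue), by the brightest probe set of each gene. Black ticks mark group means and symbols mark the replicate numbers. RSAD2 at the top runs from 14.24 to 15.15 in S35D and from 9.35 to 10.49 in 21W28D, and SAMHD1 at the bottom is the only one of them with a clearly lower S35D mean.

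Proteins secreted into the lumen held the largest difference among the named genes that passed at their brightest probe set. DMBT1, a scavenger receptor-rich glycoprotein that binds bacteria and viruses in mucus, was at 13.51, 12.38 and 13.28 in the S35D arrays and at 8.48, 8.01 and 7.08 in the 21W28D arrays. All 3 S35D arrays were far above the 21W28D arrays. The difference was 5.20 (0.88, adjusted p = 0.00832), or 36.8-fold. SFTPD, the collectin surfactant protein D, was at 11.41, 10.63 and 10.86 against 8.41, 6.35 and 5.21, a difference of 4.31 (0.86, adjusted p = 0.0190). A second SFTPD probe set gave 3.72 (0.42, adjusted p = 0.00161) and passed in each fit that left out 1 array. TFF2, a trefoil peptide that protects and repairs the mucosa, was at 11.83, 11.53 and 11.02 against 8.53, 9.36 and 7.62, a difference of 2.96 (0.61, adjusted p = 0.0214).

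These were the 2 of 15 defence genes and the 1 of 8 goblet cell genes that passed, against 3.65% of all genes that were higher, and so few calls do not set either list apart. SLPI, an antiprotease, and CCL28, a chemokine that draws IgA-producing cells, had values of 13.31 to 14.19 against 8.81 to 11.87 and of 7.56 to 8.87 against 4.07 to 7.37, with adjusted p-values of 0.0776 and 0.194. PIGR, which carries IgA across the epithelium, differed by 0.37. The median over the 15 defence genes was 0.04. DMBT1 passed in each fit that left out 1 array, whereas of DMBT1, SFTPD and TFF2 only 1 passed without S35D replicate 1 and only 1 without 21W28D replicate 3.

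Of the 14 immediate early genes and EGF ligands measured, 3 were higher and 0 lower, against 3.65% and 1.48% of all genes. The list median was 0.16, with 8 positive and 4 negative differences. The 3 genes passed in every fit that left out 1 array. AREG (amphiregulin, a ligand of the EGF receptor) was at 11.38, 8.47 and 9.15 in the S35D arrays and at 5.07, 4.37 and 5.18 in the 21W28D arrays, a difference of 4.80 (0.72, adjusted p = 0.00606). FOS, an early target of ERK signalling, was at 11.48, 11.41 and 11.08 against 9.39, 8.61 and 9.30, a difference of 2.22 (0.35, adjusted p = 0.00606). DUSP6, the phosphatase that dampens ERK, was at 11.89, 11.79 and 11.81 against 10.17, 10.17 and 10.44, a difference of 1.57 (0.24, adjusted p = 0.00606). The spread within the S35D group was wide for AREG (SD 1.52) and narrow for DUSP6 (SD 0.05). The other 11 of the 14 immediate early genes and EGF ligands did not pass: JUN differed by 0.93, EGR1 by -0.49 and IER3 by -0.99. In the 21W35D arrays AREG, FOS and DUSP6 were at means of 9.48, 11.77 and 12.06, near those of S35D.

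Among enzymes of detoxification, 2 of 29 were higher and 1 was lower, against 3.65% and 1.48% of all genes, so that the counts are near the background and the values below are those of single genes. GSTA1, a glutathione transferase of the enterocyte, was at 14.20, 14.86 and 14.88 in the S35D arrays and at 11.03, 8.33 and 9.63 in the 21W28D arrays. The difference was 4.98 (0.79, adjusted p = 0.00606), 31.7-fold, and its mean was 4.93 in S21D, 11.50 in S28D and 12.06 in 21W35D. GSTO1 was higher by 1.80 (0.33, adjusted p = 0.0132). UGT2B31, which couples glucuronic acid to steroids and drugs, went the other way: it was at 8.02, 8.42 and 6.54 against 10.36, 10.29 and 9.54 at its brightest probe set, a difference of -2.41 (0.63, adjusted p = 0.0493). A dimmer UGT2B31 probe set fell by 3.20, the largest fall among named genes. ABCC2, the apical pump for glucuronide and glutathione conjugates, was at 6.33, 5.69 and 5.68 in the S35D arrays and at 2.90, 2.29 and 2.35, near the floor, in the 21W28D arrays (difference 3.39, standard error 0.81, adjusted p = 0.0371). UGT2B31 and ABCC2 passed in 1 of the 6 fits that left out 1 array and GSTA1 in all 6, while GSTO1 was lost without S35D replicate 1 and without 21W28D replicate 3. With the replicate number as a block, ABCC2 had an adjusted p of 0.0555 (0.00654 to 0.163 over its 16 alternatives).

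Cholesterol synthesis was the other pathway in which several enzymes passed. Of the 11 of 21 genes measured, 4 were higher, and 10 of the 11 had positive differences, an unadjusted p under 0.05 and groups that did not overlap. By the same unadjusted test 13.9% of all genes were higher, and 14.2% had S35D values that all lay above the 21W28D values. The list median was 1.41. INSIG1, the sterol-regulated anchor of SREBP, was at 13.25, 13.07 and 12.97 in the S35D arrays and at 10.94, 11.98 and 10.90 in the 21W28D arrays, a difference of 1.82 (0.45, adjusted p = 0.0408). SC5D, a late desaturase, was higher by 1.50 (0.34, adjusted p = 0.0281), NSDHL by 1.42 (0.35, adjusted p = 0.0400) and FDFT1 (squalene synthase) by 1.21 (0.26, adjusted p = 0.0246). HMGCS1, CYP51 and MSMO1 differed by 1.41, 1.23 and 1.76 with adjusted p-values of 0.053 and 0.054, just outside the threshold. SREBF2, the factor that drives the pathway, differed by -0.15.

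The scores of this list were 0.79, 0.85 and 0.77 in the S35D arrays and -0.62, -0.10 and -0.58 in the 21W28D arrays, so that the S35D arrays lay close together. The calls themselves were near the threshold: 0 of the 4 passed without S35D replicate 1, without S35D replicate 3 or without 21W28D replicate 3. With the replicate number as a block 2 of the list passed, INSIG1 having an adjusted p of 0.0671 (0.0206 to 0.251 over its 16 alternatives) and NSDHL one of 0.0703 (0.0209 to 0.285). After each array was centred on its median, 7 passed. ANGPTL4, an inhibitor of lipoprotein lipase that was on the list of fatty acid oxidation, was higher by 1.76 (0.38, adjusted p = 0.0246). None of the 20 genes of fat absorption passed (0 higher and 0 lower by limma), although APOA4 differed by 2.72 and APOE by -2.02. At an unadjusted p under 0.05, 3 of the 20 were higher and 1 lower, against 13.9% and 11.1% of all genes.

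**Figure D3:**
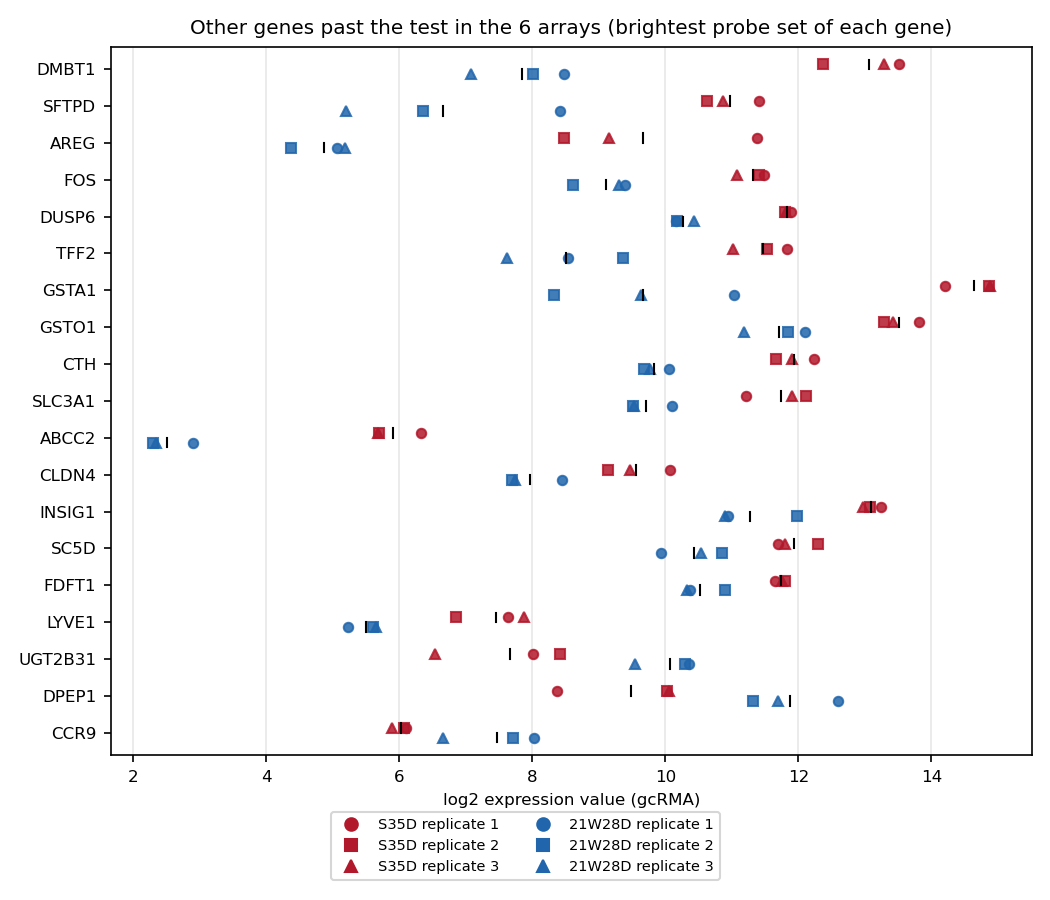
Log2 expression values (x axis) of 19 further genes that passed the test (y axis) in the 3 S35D arrays (red) and the 3 21W28D arrays (blue), by the brightest probe set of each gene; black ticks are group means. DMBT1 runs from 12.38 to 13.51 in S35D and from 7.08 to 8.48 in 21W28D, and UGT2B31, DPEP1 and CCR9 at the bottom are lower in S35D.

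Transport and junction genes passed singly. SLC3A1, the heavy chain of the apical transporter of cystine and basic amino acids, was at 11.21, 12.12 and 11.90 against 10.10, 9.51 and 9.53, a difference of 2.03 (0.46, adjusted p = 0.0286). A dimmer SLC3A1 probe set was at a mean of 6.24 in both groups, with a standard error of 0.59 on the difference. CLDN4, a sealing claudin, was higher by 1.60 (0.40, adjusted p = 0.0417), and KCNN4, the basolateral potassium channel that supports chloride secretion, by 1.37 (0.33, adjusted p = 0.0379). Of these 3, none passed without S35D replicate 1, S35D replicate 3, 21W28D replicate 2 or 21W28D replicate 3. CLDN4 and KCNN4 also did not pass with the replicate number as a block (adjusted p = 0.0618 and 0.0651; 0.0210 to 0.233 and 0.00630 to 0.497 over the 16 alternatives of each). SLC2A2 (GLUT2), SLC15A1 (the peptide transporter PEPT1) and the water channel AQP8 had differences of 2.84, 1.97 and 2.58 and adjusted p-values of 0.22, 0.078 and 0.12.

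CTH, which makes cysteine from cystathionine, was at 12.23, 11.67 and 11.90 in the S35D arrays and at 10.05, 9.68 and 9.77 in the 21W28D arrays. It differed by 2.10 (0.33, adjusted p = 0.00606) and passed in each fit that left out 1 array. ARG2, the mitochondrial arginase, was at 7.70, 5.14 and 8.25 against 3.78, 5.42 and 4.68. Its groups overlapped, and the difference of 2.41 (0.63, adjusted p = 0.0486) passed in 1 of the 6 fits that left out 1 array and not with the replicate number as a block (adjusted p = 0.0757; 0.00262 to 0.567 over its 16 alternatives). DNAJB9, a chaperone of the endoplasmic reticulum, was higher by 1.38 and TXNIP, an inhibitor of thioredoxin, by 0.66, and neither passed without S35D replicate 1, S35D replicate 3, 21W28D replicate 2 or 21W28D replicate 3. LYVE1, a marker of lymphatic vessels and some macrophages, was at 7.64, 6.86 and 7.88 against 5.23, 5.61 and 5.65, a difference of 1.96 (0.31, adjusted p = 0.00606). The other 8 vessel genes did not pass, and PECAM1 differed by -0.22.

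Among the 15 largest rises, 2 genes stood outside these lists besides DDX60. GMPR, which converts GMP to IMP, was at 9.33, 6.63 and 7.68 against 4.32, 4.44 and 3.78, a difference of 3.70 (0.57, adjusted p = 0.00606), and at 3.49 by its brightest probe set. TCP11 was at 8.21, 6.72 and 5.83 against 3.31, 3.85 and 2.64, a difference of 3.66 (0.55, adjusted p = 0.00606). Both passed in each fit that left out 1 array. The 51 probe sets that were higher in all of those fits had 37 with 1 symbol, for 34 genes. The following were picked from them after their values had been seen: SPATS2L (2.29), ISG12(A) (2.03), TMED10 (1.95), MCFD2 (1.71), NT5C3A (1.51), PSMA5, a proteasome subunit (1.21), IFNGR1, a chain of the interferon gamma receptor (1.18), and CDKN1A, the cell cycle inhibitor p21 (1.14).

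Falls were smaller, and several rested on 1 of the probe sets of a gene. C14H10orf35 was at 2.54, 3.21 and 2.77, near the floor, in the S35D arrays and at 5.95, 5.41 and 4.90 in the 21W28D arrays, a difference of -2.58 (0.44, adjusted p = 0.00874). DPEP1, a brush border dipeptidase, was at 8.37, 10.02 and 10.05 against 12.60, 11.31 and 11.69, a difference of -2.38 (0.50, adjusted p = 0.0218). MARCH7, a ubiquitin ligase, fell by 1.63 at one probe set, whereas its brightest probe set differed by -0.27 (adjusted p = 0.365). The same held for SNRPA1, ACTR6, PARP8 and UBA3, whose brightest probe sets differed by -0.21, -0.50, -0.38 and 0.06 and did not pass. ZNF395 fell at 3 probe sets by like amounts (-1.38, -1.34 and -1.27), of which only the first passed and the brightest had an adjusted p of 0.0557 by limma. Of the 9 named falls whose brightest probe set was another one, it passed in 3: UGT2B31, ABLIM1 (-1.57) and OGT (-0.83), the enzyme that adds N-acetylglucosamine to nuclear proteins. For the 4 named rises of this kind it passed in all 4.

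STAT5B, which carries signals of growth hormone and cytokines, was at 6.65, 6.47 and 6.92 in the S35D arrays and at 7.86 ± 0.13 (SD, n = 3) in the 21W28D arrays, of which none was under 7.74, a difference of -1.18 (0.26, adjusted p = 0.0281). A second, slightly dimmer STAT5B probe set differed by 0.07 (adjusted p = 1), and the first passed in 1 of the 6 fits that left out 1 array. NAAA, a lysosomal amidase, and LOC100512700 were lower by 1.30 and 1.25. CCR9, the receptor that brings lymphocytes to the small intestine, was at 6.10, 6.07 and 5.89 against 8.02, 7.71 and 6.66, a difference of -1.44 (0.37, adjusted p = 0.0452). With 1 array left out, 3 to 11 of the 15 named falls passed, the fewest without S35D replicate 1 and without 21W28D replicate 2. C14H10orf35 and MARCH7 passed in each fit that left out 1 array, and CCR9 passed only without 21W28D replicate 3. With the replicate number as a block 10 of the 15 passed. Those that did not were CCR9 (adjusted p = 0.0697), PARP8 (0.0632), ZNF395 (0.0899), NAAA (0.0794) and LOC100512700 (0.0804), and over their alternatives (15 for PARP8 and ZNF395, 16 for the other 3) these 5 ranged from 0.0194 to 0.401. The brightest ABLIM1 probe set was lost as well (0.0628; 0.0153 to 0.330 over its 16 alternatives).

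**Figure D4:**
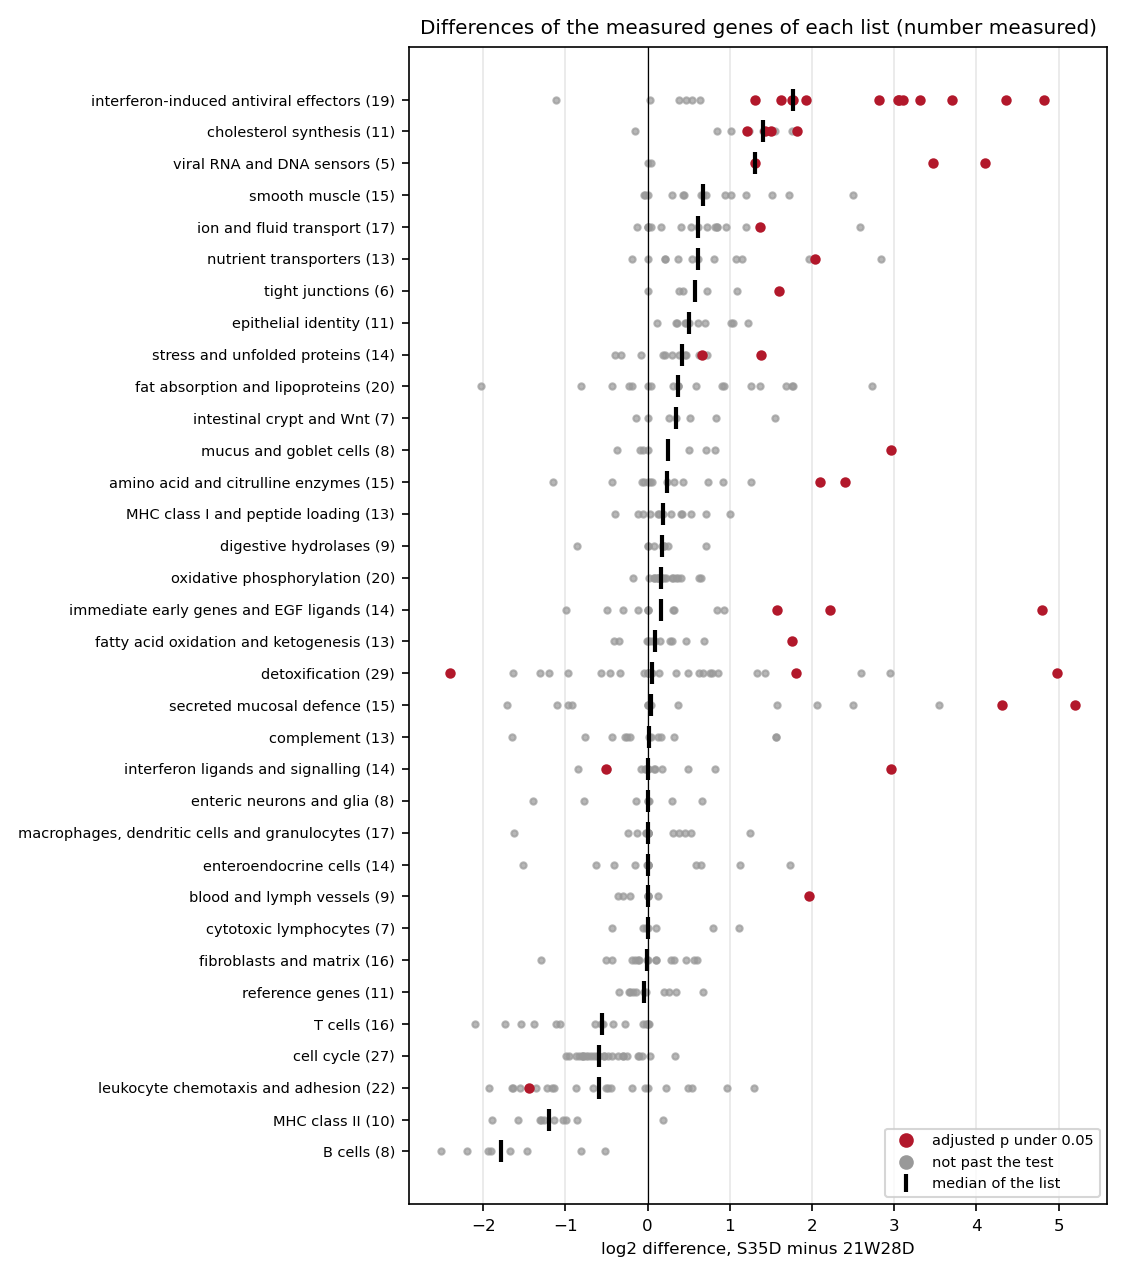
Log2 differences (x axis, S35D minus 21W28D) of the measured genes of each list with at least 5 of them (y axis, number measured in brackets), with genes past the test in red, others in grey and the list median as a black bar. The 19 antiviral effectors have the highest median, 1.77, and the 8 B cell genes the lowest, -1.79, with no B cell gene past the test.

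Markers of lymphoid cells leaned the other way without passing. The 8 of 24 B cell genes that were measured all had negative differences, with a median of -1.79, but 0 passed (3 were lower at an unadjusted p under 0.05, against 11.1% of all genes). CD79B, a chain of the B cell receptor, was at 6.88, 11.10 and 10.66 in the S35D arrays and at 11.17, 11.88 and 12.17 in the 21W28D arrays. The low value of S35D replicate 1 recurred in the score of the list, which was -2.19, -0.31 and -0.36 against 0.05, 1.09 and 0.87. MS4A1 and CR2 were not analysed here. In tissue RNA, fewer cells of a type and less RNA per cell cannot be told apart. S35D replicate 1, with the lowest B cell score of the 6 arrays, was also the array farthest from 21W28D in most of the 290 higher probe sets, and the part of the B cell level in those differences was not tested.

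The 10 MHC class II genes had a median of -1.20 and 0 passed (5 lower at an unadjusted p under 0.05, against 11.1% of all genes). CD74, the invariant chain, differed by -1.89 and SLA-DOA by -1.58 (adjusted p = 0.079 and 0.32 by limma). Of the 16 T cell genes 0 passed (5 lower at an unadjusted p, against the same 11.1%). CD3D, CD3E and CD3G differed by -0.56, -0.64 and -0.55. CXCL13, which draws B cells into follicles, was at 10.08, 12.53 and 12.38 against 12.04, 14.09 and 13.79, and its difference of -1.65 (1.99) was smaller than its error. ICAM1 and VCAM1, the adhesion molecules of vessels and leukocytes, differed by -1.14 and -1.16, and VAV1, a signal transducer of lymphocytes, by -1.23, with adjusted p-values of 0.297, 0.319 and 0.372. CCR9 was the 1 gene of the 22 for chemotaxis and adhesion that passed. The 27 cell cycle genes had 25 negative differences, a median of -0.59 and 0 past the test (0 in both directions at an unadjusted p). The scores of B cells and cell cycle both were lowest in S35D replicate 1 among the 6 arrays.

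Epithelial markers mostly leaned towards the S35D label without passing. Outside the list of epithelial identity, the defining markers FABP2 and FABP6 differed by -0.18 (standard error 0.60) and 0.04 (0.25). All 11 genes of epithelial identity had positive differences with a median of 0.50, and 0 passed (5 higher at an unadjusted p, against 13.9% of all genes). CDH17, the intestinal cadherin, was at 13.44, 13.27 and 13.48 against 12.71, 12.31 and 12.11 (adjusted p = 0.0559), and KRT18 differed by 1.22. The scores were 0.64, 0.29 and 0.37 in the S35D arrays and 0.23, -0.30 and -0.48 in the 21W28D arrays. The part of the share of epithelium in the differences of GSTA1, CLDN4, SLC3A1 and other epithelial genes was not tested. Within the S35D group the epithelial score was highest in replicate 1. GSTA1 and SLC3A1 were lowest there at their brightest probe sets, whereas CLDN4 was highest there (10.08). The second probe sets of GSTA1 (12.84) and SLC3A1 (6.45) were also highest in that array. The 20 subunits of oxidative phosphorylation had a median of 0.17, with 19 positive and 0 past the test. The 13 MHC class I genes had a median of 0.19 and 0 past the test. At an unadjusted p, 4 of the 20 and 3 of the 13 were higher, against 13.9% of all genes.

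S35D replicate 3 stood apart in smooth muscle genes. DES (desmin) was at 8.11 in it and at 4.61 to 5.34 in the other 5 arrays, CNN1 at 10.34 against 5.18 to 6.75, and TAGLN at 11.40 against 7.38 to 9.01. The score of the list was 2.46 against -0.43 to -0.05. None of the 15 genes passed (2 higher at an unadjusted p, against 13.9% of all genes). The list's median was 0.67 with all arrays and -0.09 without S35D replicate 3. ACTG2 did not follow this pattern at its brightest probe set, where it was at 12.83, 13.37 and 12.41 in the S35D arrays. Its second probe set did, at 14.78 in S35D replicate 3 and at 9.80 to 11.25 in the other 5 arrays. UCHL1, a marker of nerve cells, was at 5.01 in S35D replicate 3 and at 2.65 to 2.90 in the others, while ELAVL4 was at the floor in all. S100B, a marker of glia, did not stand out there. It was at 4.16 in that array, at 3.49 and 3.45 in the other S35D arrays and at 4.49 to 5.42 in the 21W28D arrays. Without this array 129 probe sets were higher and 45 were lower, and 15 of the 18 interferon-induced genes passed. HBB, of red blood cells, was at 10.56 to 10.80 in the S35D arrays and 10.93 to 11.18 in the 21W28D arrays. The markers ALAS2 and COL3A1 were at or near the floor. DCN, of fibroblasts, differed by 0.32.

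**Figure D5:**
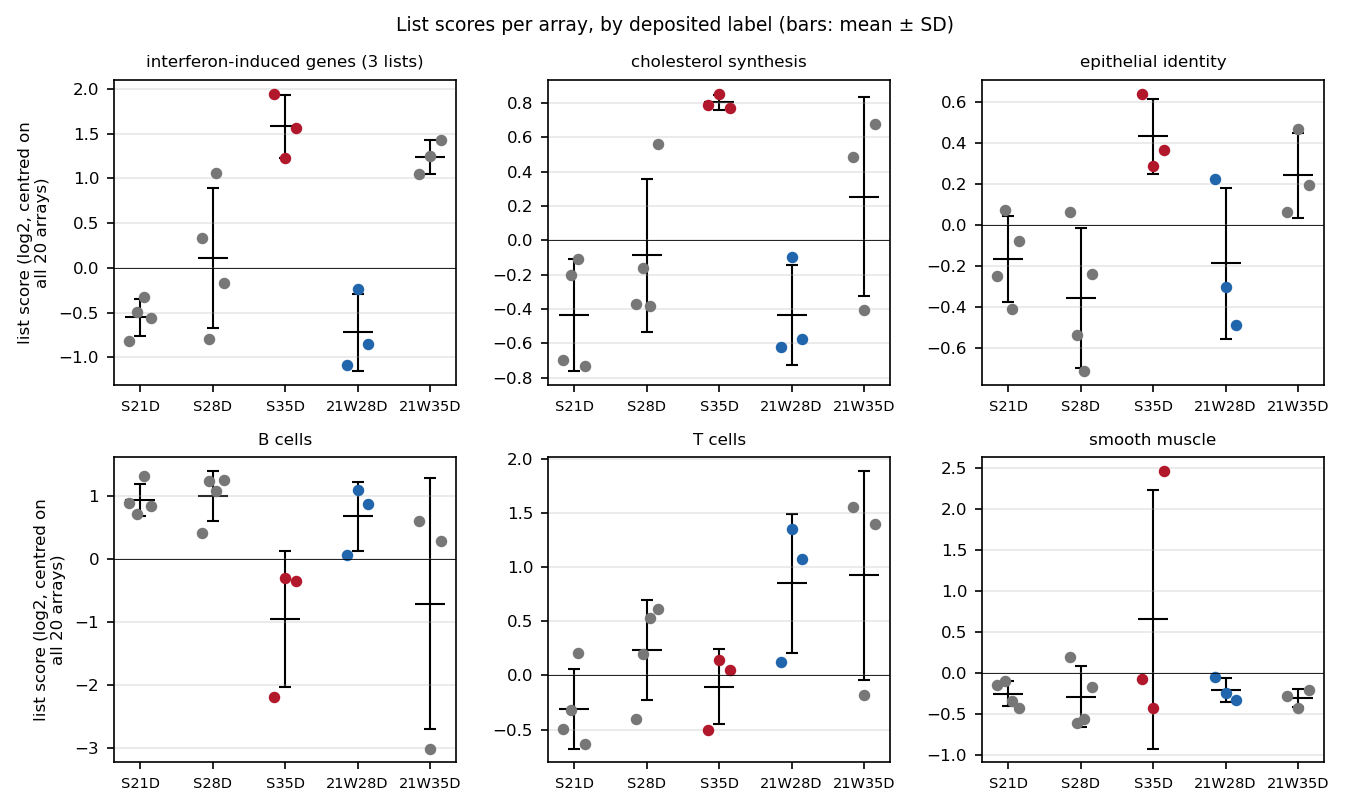
Scores of 6 gene lists (y axis, the mean over a list of log2 values that were centred per gene on all 20 arrays) in single arrays of S21D, S28D, S35D, 21W28D and 21W35D by deposited label (x axis), with group means and SD as bars. The interferon scores of S35D (1.23 to 1.94) are above those of 21W28D (-1.08 to -0.24), the B cell score of S35D replicate 1 is -2.19, and the smooth muscle score of S35D replicate 3 is 2.46.

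Over the 40 lists, 18 had at least 1 gene past the test and 22 had 0. Of the 290 higher probe sets, the 21W35D mean was nearer to S35D than to 21W28D in 234, the S28D mean in 7 and the S21D mean in 18. For the 95 lower ones these numbers were 49, 9 and 14. These probe sets were selected for their difference between S35D and 21W28D, and the same shares over all probe sets are not given here. By label 21W35D has the age of S35D and S28D that of 21W28D, so that age and weaning cannot be told apart by these counts.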

How the data were processed

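RNA of the ileal mucosa from 20 piglets was measured on Affymetrix GeneChip Porcine Genome Arrays. The deposited values are log2 values per probe set, which the authors obtained by gcRMA. The submitters' processing notes also name GCOS 1.2. gcRMA makes the distributions of all arrays alike and compresses low signals, and the number of arrays limits the precision. The piglets came from litters of several sows, so that arrays may share a litter, but the sources used here tie no array to a litter or a scan date. Of 24123 probe sets, 124 controls were left out. Among the 23999 tested, 10069 carried 1 symbol, 198 several and 13732 none in the platform annotation, and 9961 matched the Sscrofa11.1 gene table by gene ID. Probe sets whose name ends in _s_at (RSAD2, IRF7, the dimmer DDX58) may bind transcripts of more than 1 gene.

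limma 3.58.1 in R 4.3.3 estimated 1 mean for each of the 6 groups from all 20 arrays, with Benjamini-Hochberg adjustment over all tested probe sets. The methods compared groups by t-test, which was an alternative here. Each list gene was represented by its brightest probe set and called on the adjusted p alone. Members and lists were chosen with earlier results of these data known. Named were genes of the paper, the 15 largest rises and falls (groups not overlapping, at least 4 log2 units in 1 array), up to 4 called genes per list and the cell type markers. The 40 lists held 748 genes, of which 479 were measured. Deviations of arrays with the same replicate number correlated at 0.278, 0.132 and 0.230, and those with different numbers at -0.338 to 0.198. All 3 same-number values were over 0.1, so that the numbers were taken to pair the arrays of both groups. The different-number value of 0.198 was over 0.1 as well. The plan kept the replicate block as an alternative unless every such pair correlated over 0.1, so that its rule called for the block here. The main fit nevertheless left this pairing out, and its counts and p-values are those given unless the block is named. With the block, 13 of the 60 named probe sets that passed in the main fit no longer did. The replicate block spanned all 6 groups, although the pairing was looked at in these 2 only. The titles give the numbers only, and the pairing comes from these correlations. Tested on simulated data with 100 changes of each size among 23999 probe sets, the fit called 45% of 2-fold and 75% of 4-fold changes and 5 of 23799 unchanged ones. The simulated noise was normal and independent between probe sets, and all changes were placed at mean values above 5. It held no shift common to the probe sets of an array, so that these shares may not hold for the real arrays. Promoter and protein sequences were not used here, and the planned motif count was not run. Python 3.11.15 with matplotlib 3.10.9 drew the figures. The alternatives were other sets of arrays in the fit, a filter on dim probe sets, an intensity trend, 2 normalizations, the replicate block, 1 probe set per gene, gene means, other fold minimums, the t-test and each array left out; 2 further block fits were chosen after seeing the data.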

Additional observations from a re-analysis of the deposited data

Results flagged for a closer look

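Groups of 3 arrays were too small for a check of single arrays, so that it covered the S21D and S28D arrays (4 each) for the values shown above, in 56 sets of 4 values. Such a check marks about 1 in 20 sets by chance, and 3 were marked. The MHC class II score of S21D replicate 3 was 0.9086, while the other 3 S21D arrays were at 0.3597 to 0.3786. The cell cycle score of S28D replicate 1 was 0.2421, and the others were at 0.7351 to 0.817. DMBT1 was at 8.2825 in S21D replicate 3 and at 10.0989 to 10.2462 in the others. All 3 lie in groups that served only to place levels.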

How the results depend on the processing

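The counts of probe sets called at 2-fold were 290 higher and 95 lower. With only the 6 arrays in the fit they were 0 and 0. They were 443 and 187 without dim probe sets, 169 and 21 with 1 probe set per named gene, 494 and 428 without a fold minimum and 87 and 8 at 4-fold. The methods' t-test gave 531 and 295 unadjusted and 0 and 0 after Benjamini-Hochberg adjustment. With the replicate block they were 174 and 52, with 221 of its 226 calls shared, and with the block and only the 6 arrays 1 and 1. Leaving out 1 array gave 59 to 427 higher and 11 to 188 lower. The cause of these shifts was not tested.

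Of the interferon-induced genes, 0 passed with only the 6 arrays, with or without the replicate block, and 10 to 18 with 1 array left out; elsewhere 16 or 18 did. Of the cholesterol synthesis genes, 0 passed with only the 6 arrays, with or without the replicate block, 8 without dim probe sets, 7 after median centring, 7 by gene means, 2 with the replicate block and 0 to 3 with 1 array left out. Beyond the genes named above as not passing with it, the replicate block ended no other call of a named gene. No difference of a named gene that passed turned its sign under any alternative run. The design allows 3 animals per group, and an exact permutation test of 3 against 3 cannot go below 0.1.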
